A study of Mus musculus with 12 samples.

Results

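The epidermal growth factor (EGF) receptor, its ligands and its partner receptors were followed in mouse lung as 9 genes: the ligand genes Ereg, Areg, Hbegf, Tgfa, Btc and Egf, and the receptor genes Egfr, Erbb2 and Erbb3. All probe sets annotated with exactly 1 of these symbols were taken, which gave 19 of the 45101 probe sets of the array, for 8 of the 9 genes. The annotation used here named 0 probe sets for Areg, the gene of amphiregulin, which was therefore not analysed here. Of the 19 probe sets, 18 passed the filter on low signals.

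The left lungs of male mice aged 6 to 8 weeks had been homogenised and their RNA read on Affymetrix Mouse Genome 430 2.0 arrays, with an array for each mouse and 3 mice in each of 4 groups. Nfkb1-deficient mice (Nfkb1-/-, targeted allele Nfkb1tm1Bal), which can make neither p105 nor its NF-kB product p50 in any cell, had either breathed 0.3 ppm ozone for 48 h without a break (Nfkb1KO-O3) or filtered air in a parallel chamber (Nfkb1KO-Air). Wild-type mice (WT, B6129PF2/J) had the same ozone exposure (WT-O3) or filtered air (WT-Air). The wild-type strain is a mixed-background F2 control, and nothing in the sources used here says that the mice were littermates. Lungs were taken directly after exposure, so the data hold 1 time point. The annotation named 0 probe sets for Nfkb1 too, so the genotype labels were not checked against the deleted gene.

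The ligands of the EGF receptor are made as membrane-anchored precursors, and metalloproteinases such as ADAM17 cut them free. A bound ligand makes EGFR pair with another receptor of the ErbB family. ERBB2 has no ligand of its own and serves as the favoured partner, whereas ERBB3 binds neuregulins and has very little kinase activity. The pairs signal through the RAS-ERK and PI3K-AKT pathways, and in lung epithelium they are known for driving spreading, division and repair after injury. Amphiregulin, HB-EGF and epiregulin are known as ligands that injured epithelium makes early.

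The markers of lung were present: alveolar type 2 genes averaged 13.84 to 13.97 on the log2 scale over the 12 arrays and club cell genes 14.35 to 14.64, against 4.494 to 6.56 for basal cell genes and 3.13 to 5.353 for mast cell and basophil genes. The lower limit used here, the 20th percentile of the normalised values, was a log2 signal of 4.37, and the median probe set was at 6.804. The array of Nfkb1KO-Air replicate 1 had a median deposited signal of 179.8, against 98.9 to 120.6 in the other 11 arrays. Poly-A controls, spiked into the RNA, had mean log2 values of 8.874 to 9.585 with O3 and 9.569 to 10.1 with air, and the part of this difference in the results was not tested. Skeletal muscle genes averaged 12.36 in WT-Air replicate 3, against 5.756 to 9.784 in the other 11 arrays.

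In Nfkb1-deficient mice, O3 raised 3 of the 18 member probe sets, 1 of Ereg and 2 of Hbegf, and lowered 1, of Erbb2, at an adjusted p under 0.05 in limma. Over all 42559 probe sets tested, 3.59% were called in this comparison, 2.23% higher and 1.35% lower. In WT mice, the same 3 member probe sets rose and 0 fell, beside 3.23% of all probe sets (2.15% higher and 1.08% lower). The median log2 difference of the 18 probe sets was 0.12 in Nfkb1-deficient mice and -0.08 in WT mice, beside -0.00213 in Nfkb1-deficient mice and -0.00281 in WT mice over all probe sets. The 3 probe sets that rose belong to 2 ligand genes, and the probe sets of Tgfa, Btc, Egf, Egfr and Erbb3 were not called. The lung was measured whole, so fewer cells of a type and less RNA per cell cannot be told apart in any of these values.

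**Figure D1:**
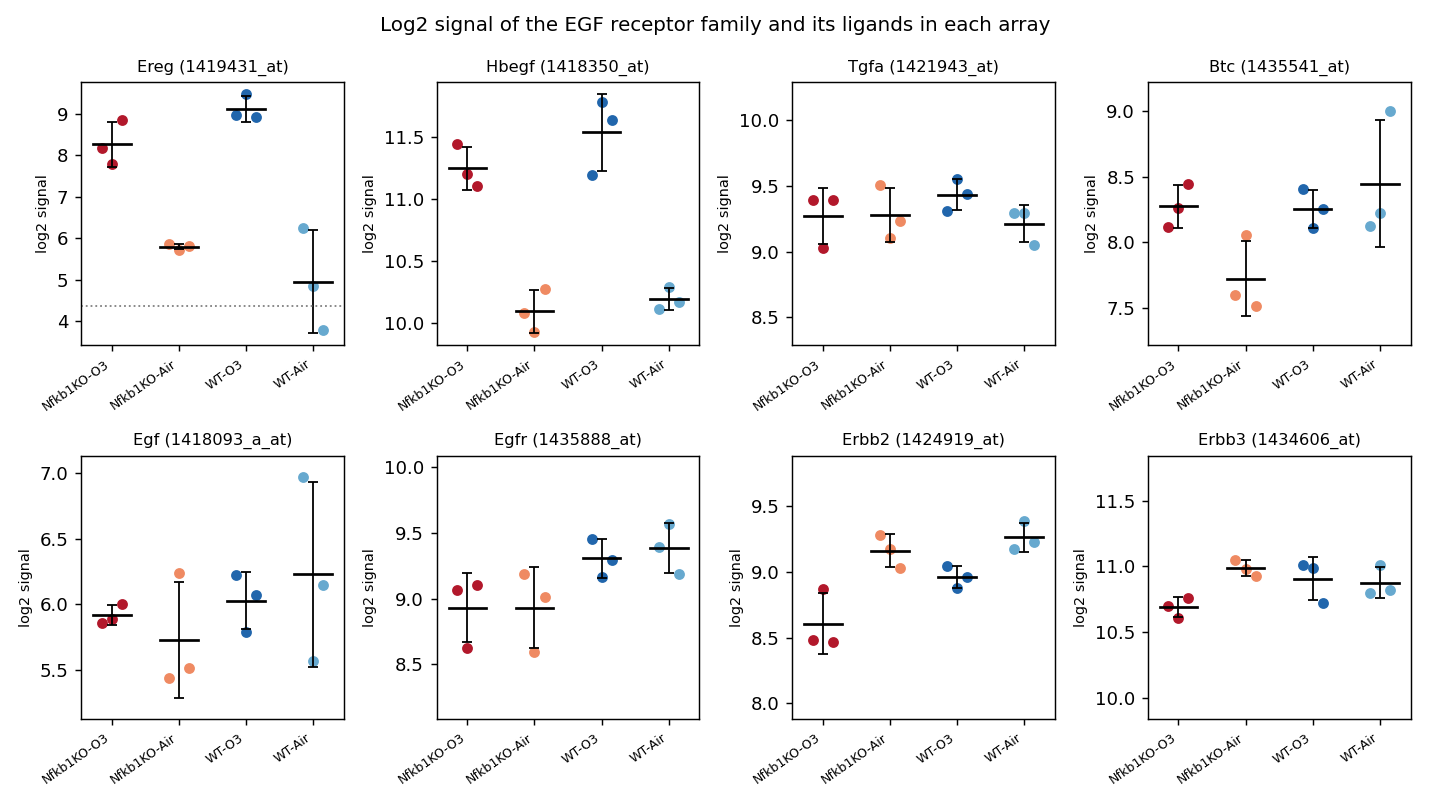
Log2 signal (vertical axis) of the brightest probe set of each of 8 genes in the 12 arrays, with the groups Nfkb1KO-O3, Nfkb1KO-Air, WT-O3 and WT-Air from left to right. Dots are mice, bars and whiskers are means ± SD (n = 3), and the dotted line is the lower limit of 4.37. Ereg lay at 7.792 to 9.477 in the 6 O3 arrays and at 3.774 to 6.254 in the 6 air arrays, and Hbegf at 11.1 to 11.78 in the O3 arrays and at 9.921 to 10.29 in the air arrays.

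Ereg encodes epiregulin, a ligand of EGFR and ERBB4, and was covered by 1 probe set (1419431_at). Its deposited signal was 279, 208 and 449 in the 3 Nfkb1KO-O3 mice and 112, 50.0 and 57.6 in the 3 Nfkb1KO-Air mice. It was 503, 712 and 479.9 in WT-O3, against 74.1, 26.9 and 14.9 in WT-Air. Every O3 array lay above every air array of either genotype. After normalisation the log2 signal averaged 8.27 ± 0.54 in Nfkb1KO-O3, 5.80 ± 0.07 in Nfkb1KO-Air, 9.12 ± 0.31 in WT-O3 and 4.96 ± 1.24 in WT-Air (SD, n = 3 each).

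The O3 change of Ereg was 2.47 ± 0.48 on the log2 scale in Nfkb1-deficient mice (SE, adjusted p = 0.015, 95% interval 1.44 to 3.51), a 5.55-fold rise. In WT mice it was 4.17 ± 0.48 (adjusted p = 0.00081, interval 3.13 to 5.20). Because WT-Air replicate 3 lay below the lower limit, the WT means are given as at least 15.7-fold apart. This bound takes no account of the spread between mice. The call in Nfkb1-deficient mice was lost without Nfkb1KO-O3 replicate 1 (adjusted p = 0.059) or replicate 3 (adjusted p = 0.058), and with no trend in the spread (adjusted p = 0.070). The call in WT mice held in all 26 alternatives.

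The order of the group means of Ereg was WT-O3, Nfkb1KO-O3, Nfkb1KO-Air and WT-Air. The 2 O3 groups did not overlap, yet their difference missed the threshold (Nfkb1KO-O3 minus WT-O3 -0.85 ± 0.48, adjusted p = 0.74, interval -1.89 to 0.19). The 2 air groups overlapped (0.84 ± 0.48, adjusted p = 0.62), with Nfkb1KO-Air within 5.724 to 5.853 and WT-Air spread over 3.774 to 6.254. Since WT-Air replicate 3 lay below the lower limit, the 2 air means are given as at least 1.56-fold apart, a ratio that takes no account of the spread between mice. The interval of the air difference reached from -0.195 to 1.88, so no difference between the air groups was shown. The size of the interaction rests on the same array, WT-Air replicate 3. The difference between the 2 O3 changes, Nfkb1-deficient less WT, was -1.69 ± 0.68, and this interaction had an unadjusted p of 0.027 in limma but an adjusted p of 0.93. It ranged over -2.33 to -1.1 across 25 alternatives, with adjusted p of 0.33 to 0.99, and was -1.1 without Nfkb1KO-Air replicate 1 and WT-Air replicate 3.

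Hbegf encodes HB-EGF, a heparin-binding ligand of EGFR and ERBB4, and it rose in both genotypes on both of its probe sets. On 1418350_at, the deposited signal was 2827, 2384 and 2258 in Nfkb1KO-O3 and 1044, 976 and 1239 in Nfkb1KO-Air. It was 2380.5, 3579.8 and 3220.2 in WT-O3, against 1101, 1271 and 1144 in WT-Air. Again each O3 array exceeded each air array, while the 2 O3 groups overlapped, as did the 2 air groups. The change was 1.15 ± 0.15 (2.23-fold, adjusted p = 0.002, interval 0.83 to 1.48) in Nfkb1-deficient mice and 1.35 ± 0.15 (2.54-fold, adjusted p = 6e-04, interval 1.03 to 1.67) in WT mice.

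The other probe set of Hbegf, 1418349_at, moved the same way. Its deposited signal was 1591, 1458 and 1792 in Nfkb1KO-O3, against 882, 856 and 964 in Nfkb1KO-Air, a change of 0.82 ± 0.13 (1.77-fold, adjusted p = 0.0048; 0.050 and no longer called with no trend in the spread). In WT-O3 it was 1577, 2076 and 1729, against 818, 897 and 717 in WT-Air, a change of 1.13 ± 0.13 (2.18-fold, adjusted p = 0.00064). No array of an O3 group fell into the range of an air group on this probe set either. The genotypes did not differ past the threshold: on 1418350_at the difference was -0.29 ± 0.15 after O3 (adjusted p = 0.69, interval -0.61 to 0.03) and -0.10 ± 0.15 in air (adjusted p = 0.87). The interaction was -0.19 ± 0.21 on 1418350_at (adjusted p = 0.94) and -0.31 ± 0.18 on 1418349_at (adjusted p = 0.93), so its interval on 1418350_at reached from -0.65 to 0.26.

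Some other transcripts of the epithelium and of macrophages moved with O3 in the same arrays. The mean log2 signal of 5 general epithelial genes was 12.85 to 12.89 in Nfkb1KO-O3, 12.55 to 12.75 in Nfkb1KO-Air, 13.01 to 13.07 in WT-O3 and 12.4 to 12.58 in WT-Air, and of these genes 1 was called higher with O3 in Nfkb1-deficient mice and 3 in WT mice. The epithelial gene Cdh1 read lower with O3 in Nfkb1-deficient mice, at 13.19 against 13.5 in air, and was at 13.32 in both WT groups. Of the alveolar type 2 and club cell genes, 0 were called with O3 in either genotype. The mean of 5 macrophage genes was 10.35 to 10.47 in Nfkb1KO-O3, 9.654 to 9.877 in Nfkb1KO-Air, 10.4 to 10.51 in WT-O3 and 9.909 to 10.35 in WT-Air, with Marco and Chil3 called higher with O3 in both genotypes. Of these 5 macrophage genes, 4 read higher with O3 in each genotype and 1, Adgre1, read lower without a call. In air Marco averaged 7.382 in Nfkb1KO-Air and 9.139 in WT-Air, so the mean of the 5 also holds this genotype difference. The part of these shifts in the rises of Ereg and Hbegf was not tested. Without both arrays that stand apart, Nfkb1KO-Air replicate 1 and WT-Air replicate 3, the same 3 probe sets of Ereg and Hbegf were called in both genotypes.

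The remaining ligands showed no call. Tgfa encodes transforming growth factor alpha, and its brightest probe set, 1421943_at, had signals of 510 to 668 in Nfkb1KO-O3, 557 to 731 in Nfkb1KO-Air, 638 to 749 in WT-O3 and 535 to 627 in WT-Air. The WT groups did not overlap, but the difference was 0.22 ± 0.15 (adjusted p = 0.52, interval -0.09 to 0.54), and in Nfkb1-deficient mice the groups overlapped (interval -0.33 to 0.31). The other 2 Tgfa probe sets had adjusted p of 0.77 to 0.92 with O3. Egf, which encodes the founding ligand of the family and lies on chromosome 3 as Nfkb1 does, had signals of 43.7 to 124 over all 12 arrays and overlapping groups in all comparisons.

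Btc encodes betacellulin, a ligand of EGFR and ERBB4, and its 2 probe sets differed in sign in WT mice. On 1435541_at the signal was 269 to 334 in Nfkb1KO-O3, 188 to 268 in Nfkb1KO-Air, 267 to 331 in WT-O3 and 280.1 to 517 in WT-Air. In WT-Air replicate 3 was the highest, with the other 2 mice at 280.1 and 289, and Nfkb1KO-O3 did not overlap Nfkb1KO-Air. The O3 change was 0.55 ± 0.23 in Nfkb1-deficient mice (unadjusted p = 0.033, adjusted p = 0.22) and -0.19 ± 0.23 in WT mice (adjusted p = 0.77) in limma. On 1421161_at, whose O3 and air groups overlapped in both genotypes as deposited and in neither after normalisation, it was 0.78 ± 0.32 in Nfkb1-deficient mice (adjusted p = 0.21) and 0.66 ± 0.32 in WT mice (adjusted p = 0.34). In air, 1435541_at differed between Nfkb1KO-Air and WT-Air by -0.72 ± 0.23 (unadjusted p = 0.0078, adjusted p = 0.35; -0.40 without Nfkb1KO-Air replicate 1 and WT-Air replicate 3), and 1421161_at by -0.38 ± 0.32 (adjusted p = 0.75). In the order of RefSeq genes on mouse chromosome 5, Ereg, Areg and Btc are consecutive coding genes with Epgn, the gene of epigen, before them, so that Ereg and Btc are separated there by Areg.

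**Figure D2:**
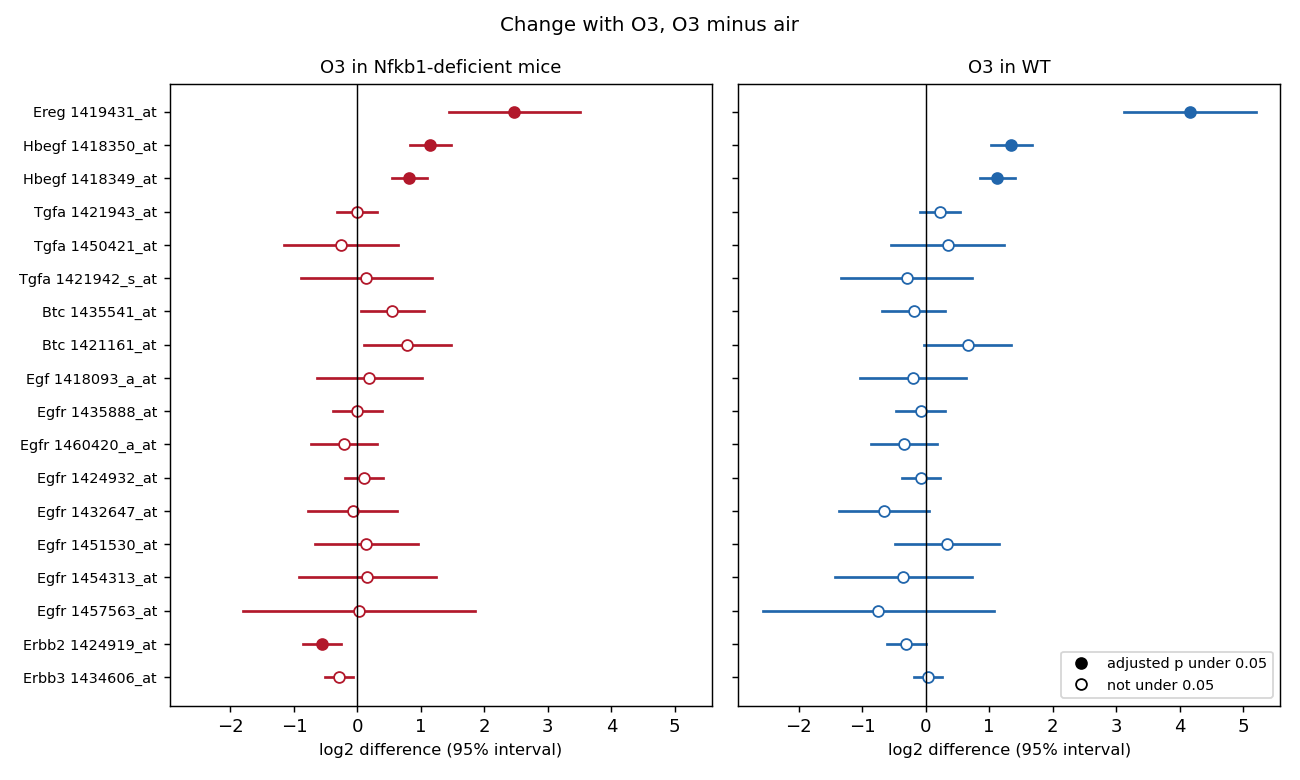
Log2 difference, O3 minus air (horizontal axis, with 95% intervals), of the 18 member probe sets that passed the filter, in Nfkb1-deficient mice (left) and in WT mice (right). Filled points have an adjusted p under 0.05. Ereg and both Hbegf probe sets lie right of 0 in both panels, and Erbb2 is filled in Nfkb1-deficient mice, at -0.56, against -0.30 in WT mice.

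Among the receptors, Erbb2, the partner receptor without a ligand of its own, was called lower with O3 in Nfkb1-deficient mice. Its 1 probe set (1424919_at) had signals of 349, 459 and 339 in Nfkb1KO-O3 and 639, 586 and 527 in Nfkb1KO-Air. It had signals of 531, 465 and 494 in WT-O3, against 581, 669 and 604 in WT-Air. In both genotypes the O3 arrays lay below the air arrays without overlap, and the Nfkb1KO-O3 arrays lay below the WT-O3 arrays as well. The change was -0.56 ± 0.14 (a 1.47-fold fall, adjusted p = 0.046) in Nfkb1-deficient mice and -0.30 ± 0.14 (unadjusted p = 0.048, adjusted p = 0.31) in WT mice. The difference between the 2 changes was -0.25 ± 0.20 (adjusted p = 0.93), so the fall was not shown to differ between genotypes. After O3 the genotype difference was -0.36 ± 0.14 (unadjusted p = 0.024, adjusted p = 0.52), and in air it was -0.10 ± 0.14 (adjusted p = 0.85).

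The Erbb2 call stood close to the threshold and was lost in 15 of 26 alternatives, with values of -0.69 to -0.25 and adjusted p of 0.027 to 0.55. With arrays centred on their medians in place of quantile normalisation it was -0.25 (adjusted p = 0.55), and the median of all probe sets was then 0.163 in this comparison. Leaving out single arrays kept the call in 2 of 12 cases. Ciliated cell genes fell with O3 in the same arrays, 3 of 4 in Nfkb1-deficient mice and 1 of 4 in WT mice. Their mean log2 signal was 11.18 to 11.8 in Nfkb1KO-O3, 12.09 to 12.55 in Nfkb1KO-Air, 10.95 to 11.67 in WT-O3 and 11.49 to 11.96 in WT-Air, and their part in the fall of Erbb2 was not tested.

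Egfr, the receptor of all ligands described here, was covered by 7 probe sets, and 0 of them were called in any of the 5 comparisons. On 1435888_at the signals were 531, 386 and 538 in Nfkb1KO-O3, 602, 388 and 522 in Nfkb1KO-Air, 708, 567 and 629 in WT-O3, and 672, 761 and 589 in WT-Air. The O3 change had a 95% interval of -0.39 to 0.39 in Nfkb1-deficient mice and of -0.47 to 0.31 in WT mice. On 1424932_at the interval was -0.20 to 0.41 in Nfkb1-deficient mice and -0.38 to 0.22 in WT mice. On these probe sets a change of the size seen for Hbegf lay outside the intervals in both genotypes. Over all 7, the O3 change was -0.21 to 0.16 in Nfkb1-deficient mice (adjusted p of 0.71 to 1) and -0.75 to 0.33 in WT mice (adjusted p of 0.36 to 0.90). The dimmest, 1457563_at, at or below the lower limit in 2 of 3 arrays of each group, bounded little, with an interval of -2.57 to 1.08 in WT mice.

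Egfr had its smallest p-values for genotype in air, none of them past the adjusted threshold. In air, the difference between Nfkb1KO-Air and WT-Air was -0.45 ± 0.18 on 1435888_at (unadjusted p = 0.025, adjusted p = 0.46; -0.69 without Nfkb1KO-Air replicate 1 and WT-Air replicate 3) and -0.39 ± 0.14 on 1424932_at (unadjusted p = 0.016, adjusted p = 0.42) in limma. On 1424932_at the 2 air groups did not overlap after normalisation, at 7.941 to 7.999 in Nfkb1KO-Air and 8.319 to 8.422 in WT-Air. After O3 the difference on 1435888_at was -0.37 ± 0.18 (adjusted p = 0.67), with no overlap between the 2 O3 groups. These 2 probe sets read lower in Nfkb1-deficient mice, and the other Egfr probe sets were divided. In air the difference was 0.0015 on 1451530_at and 0.034 on 1454313_at, but -0.18 on 1432647_at and -0.36 on 1457563_at. After O3 it was 0.25 on 1460420_a_at, 0.40 on 1432647_at, 0.54 on 1454313_at and 0.40 on 1457563_at, but -0.19 on 1451530_at. On 1460420_a_at the difference in air was 0.12 ± 0.24 (adjusted p = 0.91), with Nfkb1KO-Air replicate 1 at a signal of 763, against 394 and 406 in the other 2 mice.

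Erbb3, the receptor of neuregulins, was read by 1434606_at, whereas its other probe set, 1452482_at, lay below the lower limit in all 12 arrays and did not pass the filter. The signals of 1434606_at were 1691, 1569.6 and 1761 in Nfkb1KO-O3 and 1930.2, 2007 and 1954 in Nfkb1KO-Air. They were 2086, 2086 and 1693 in WT-O3, against 1773, 2078 and 1785 in WT-Air. The 3 Nfkb1KO-O3 arrays lay below the Nfkb1KO-Air arrays, and the WT groups overlapped. The change was -0.29 ± 0.10 in Nfkb1-deficient mice (unadjusted p = 0.013, adjusted p = 0.14), but 0.14 with arrays centred on their medians, and 0.03 ± 0.10 in WT mice (adjusted p = 0.93).

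RefSeq promoter windows of build GRCm38.p6 were given for 6 of the 9 genes, with 7 entries because Egf has 2 starts, and not for Ereg, Hbegf or Erbb3. Of the genes with both an entry and a probe set, Erbb2 was the only one called, and its 250 bases before the start (chr11:98412234-98412483, + strand) are shown beside those of Egfr (chr11:16751953-16752202, + strand), the receptor on the same chromosome with no call. Capitals mark a CCAAT box in Erbb2 and a GC box, read on the opposite strand, in Egfr.
Erbb2: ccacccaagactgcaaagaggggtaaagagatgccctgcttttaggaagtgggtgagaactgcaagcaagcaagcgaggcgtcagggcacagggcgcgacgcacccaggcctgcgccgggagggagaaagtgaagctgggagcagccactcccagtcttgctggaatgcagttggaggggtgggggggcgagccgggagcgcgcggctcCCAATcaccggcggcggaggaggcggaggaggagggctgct
Egfr: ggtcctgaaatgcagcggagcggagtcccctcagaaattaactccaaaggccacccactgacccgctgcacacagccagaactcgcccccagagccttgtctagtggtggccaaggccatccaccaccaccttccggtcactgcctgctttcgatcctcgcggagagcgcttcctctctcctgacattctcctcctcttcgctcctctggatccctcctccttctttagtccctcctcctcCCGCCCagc
Both strands were searched for AP-1 (TGANTCA), the GC box (GGGCGG), the CCAAT box (CCAAT) and the NF-kB consensus. AP-1 was found in 6.75% of all 32851 windows, the NF-kB consensus in 5%, the GC box in 32.7% and the CCAAT box in 33.8%. Of the 7 member windows, 0 held AP-1 or the NF-kB consensus, which says only that these letters are not in those 250 bases. The GC box was found in the windows of Areg, Tgfa and Egfr, and the CCAAT box in that of Erbb2. These matches are descriptions of the sequence.

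None of the 18 member probe sets was called between genotypes after O3 or in air, or for the interaction of genotype and O3, in limma. These comparisons had few calls over all probe sets: 0.409% after O3, 0.183% in air and 0.0188% for the interaction. With 1 probe set for each gene these shares were 0.626% after O3, 0.262% in air and 0.0342% for the interaction, and 0 of the 8 member genes were called. At an unadjusted p under 0.05 there were 1 member probe set after O3 (Erbb2), 3 in air (1 of Btc and 2 of Egfr) and 3 for the interaction (Ereg, Btc 1435541_at and Erbb3). Over all 42559 probe sets, 3272 after O3, 3959 in air and 2165 for the interaction were under that same threshold. With the methods' t-test in air, 1 member probe set, Egfr 1424932_at, passed an unadjusted threshold and 0 passed after Benjamini-Hochberg adjustment. The neutrophil gene S100a8 was higher in Nfkb1-deficient mice in the same arrays, by 1.30 ± 0.16 after O3 (adjusted p = 0.0017) and 1.00 ± 0.16 in air (adjusted p = 0.027), and its part in the member values was not tested. A missed threshold does not show that the genotypes are alike, and for Ereg the interval after O3 reached down to -1.89. With 3 mice against 3, the smallest p of an exact two-sided test is 0.1, so no single value was given such a test, and precision throughout is set by having 3 arrays a group.

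**Figure D3:**
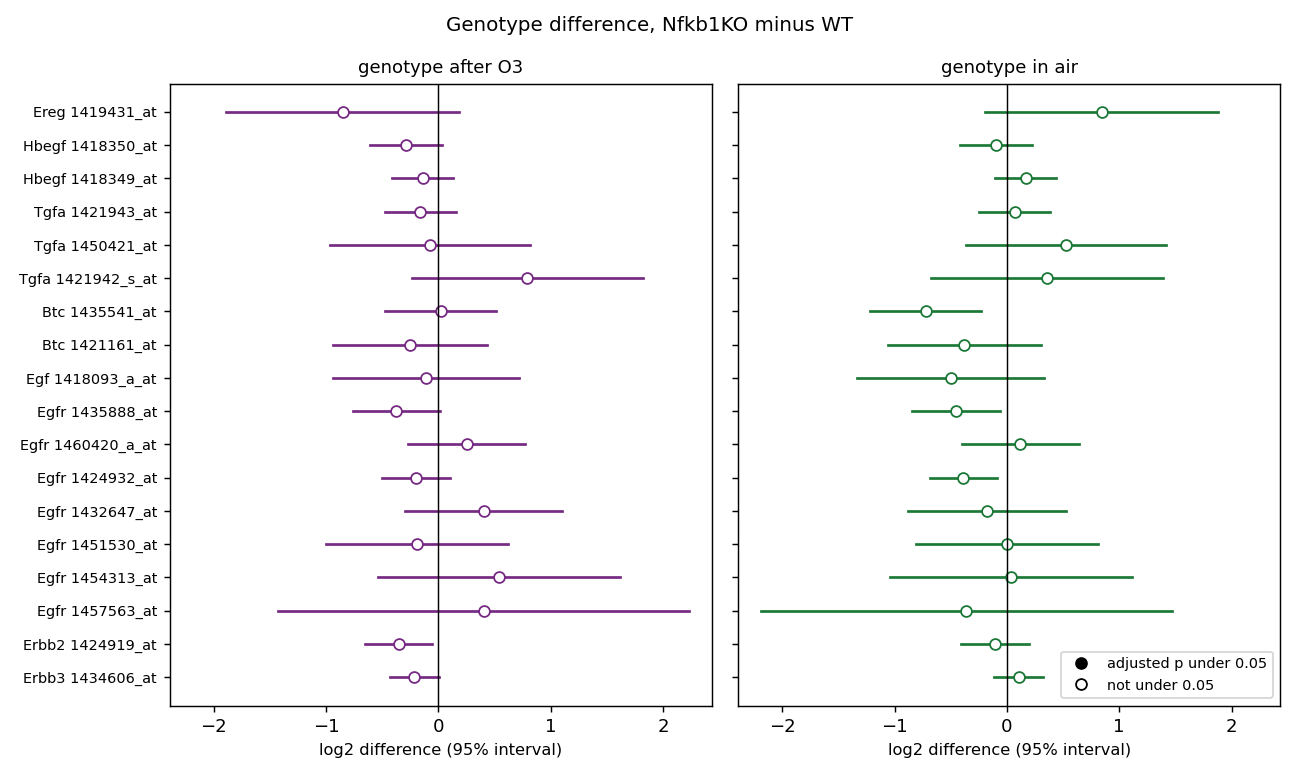
Log2 difference, Nfkb1KO minus WT (horizontal axis, with 95% intervals), of the same 18 probe sets after O3 (left) and in air (right). All points are open, since 0 had an adjusted p under 0.05, and Ereg lay at -0.85 after O3 and 0.84 in air.

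The genes whose profile over the 12 arrays lay nearest to those of the 3 called members were found by the mean absolute gap between centred log2 signals, over 8784 genes above the median. Nearest to Ereg were Timp1, an inhibitor of matrix metalloproteinases, with a gap of 0.435, Sprr1a, a protein of the cornified envelope, with 0.479, and Thbs1, a matrix glycoprotein, with 0.668. Sprr1a averaged 9.699 in Nfkb1KO-O3, 7.165 in Nfkb1KO-Air, 11.09 in WT-O3 and 6.508 in WT-Air. Nearest to Hbegf were Phlda1 (0.171), the kinase gene Lrrk2 (0.172) and Ndnf (0.189), which encodes a secreted factor. Near to Erbb2 were Nucb1 (0.0851), the gene of a Golgi calcium-binding protein, and Myo18a (0.0889), that of an unconventional myosin.

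The other ligands and the remaining receptor of the family were not called in any comparison. Of these, 1 (Nrg1 with O3 in Nfkb1-deficient mice) had an unadjusted p under 0.05 in limma, beside 3788 of all 17569 genes. These 6 genes are Epgn, the neuregulins Nrg1, Nrg2, Nrg3 and Nrg4 and Erbb4, and their median O3 change was 0.34 in Nfkb1-deficient mice and 0.189 in WT mice, beside medians over all 17569 genes, with 1 probe set each, of -0.0137 in Nfkb1-deficient mice and -0.0304 in WT mice. With the deposited scaling alone the list median turned to -0.0883 in Nfkb1-deficient mice, with 2 of 6 positive in place of 5 of 6. The median of all genes was then -0.125. Nrg1, a ligand of ERBB3, had log2 signals averaging 7.42 in Nfkb1KO-O3 and 6.295 in Nfkb1KO-Air (1.12 ± 0.38, adjusted p = 0.12), and 6.93 in WT-O3 and 6.568 in WT-Air (adjusted p = 0.72). Epgn differed by 1.02 ± 0.71 in Nfkb1-deficient mice (adjusted p = 0.49) and by 0.68 ± 0.71 in WT mice (adjusted p = 0.72), with 1 array of each air group at or below the lower limit. Erbb4, a receptor that epiregulin and HB-EGF also bind, was at or below that limit in 2 of 3 arrays in Nfkb1KO-O3, Nfkb1KO-Air and WT-O3, and in all 3 WT-Air arrays.

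Of 12 sheddases, the enzymes that release the ligands, and their regulators, 0 were called with O3 in Nfkb1-deficient mice. Over all genes 4.76% were called there (2.65% higher and 2.11% lower). At an unadjusted p under 0.05 in limma there were 6 of the 12, beside 3788 of all 17569 genes. In WT mice 1, Adam9, rose (0.61 ± 0.11, adjusted p = 0.0083), beside 4.31% of all genes (2.53% higher and 1.79% lower), but not with arrays centred on their medians. Adam9 was at 0.37 ± 0.11 in Nfkb1-deficient mice (adjusted p = 0.072). Adam17, which frees most of these ligands, was at 0.15 ± 0.16 in Nfkb1-deficient mice (adjusted p = 0.69) and at -0.18 ± 0.16 in WT mice (adjusted p = 0.67). The smallest p-values in Nfkb1-deficient mice were those of Adam12 (1.35 ± 0.36, adjusted p = 0.057) and Adam19 (-0.51 ± 0.14, adjusted p = 0.062), both of the ADAM family. The list median was -0.0037 in Nfkb1-deficient mice, but 0.389 with arrays centred on their medians (0.247 over all genes), and 0.033 in WT mice. With the deposited scaling alone both list medians changed sign, to 0.018 in Nfkb1-deficient mice and -0.0083 in WT mice. Over all genes the medians were then -0.125 in Nfkb1-deficient mice and -0.052 in WT mice.

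Of 21 feedback inhibitors of the receptor and of ERK, 3 rose and 0 fell in Nfkb1-deficient mice, beside 2.65% of all genes higher and 2.11% lower. In WT mice 2 rose and 0 fell, beside 2.53% higher and 1.79% lower. Called or not, 14 of the 21 read higher with O3 and 7 lower in each genotype. With the deposited scaling alone, 3 were called higher and 1 lower in Nfkb1-deficient mice, and 2 higher and 1 lower in WT mice. Errfi1, which binds EGFR and blocks its kinase, rose in Nfkb1-deficient mice (1.06 ± 0.23, adjusted p = 0.025) and was at 0.70 ± 0.23 in WT mice (adjusted p = 0.14). Dusp1, a phosphatase of MAP kinases, rose in Nfkb1-deficient mice (0.86 ± 0.17, adjusted p = 0.016) and was at 0.45 ± 0.17 in WT mice (adjusted p = 0.20). Spred1, an inhibitor of the RAS-ERK pathway, rose in both genotypes, by 0.71 ± 0.15 in Nfkb1-deficient mice (adjusted p = 0.021) and by 0.64 ± 0.15 in WT mice (adjusted p = 0.037). Spry4, a Sprouty inhibitor, was at 0.85 ± 0.24 in Nfkb1-deficient mice (adjusted p = 0.073) and rose in WT mice (1.25 ± 0.24, adjusted p = 0.015). The list median was 0.204 in Nfkb1-deficient mice and 0.109 in WT mice. With arrays centred on their medians it was 0.606 in Nfkb1-deficient mice (0.247 over all genes) and 0.206 in WT mice (0.0191 over all genes). The counts of calls depended on single arrays and ranged over 0 to 4 in each genotype when each array was left out.

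Of 25 adaptors and kinases downstream of the receptors with a probe set, out of 30 listed, 2 rose and 0 fell in Nfkb1-deficient mice, beside 4.76% of all genes called. In WT mice 0 rose and 1 fell, close to the 4.31% of all genes called. Map2k2, the kinase MEK2, was at 0.49 ± 0.12 in Nfkb1-deficient mice (adjusted p = 0.035) and 0.23 ± 0.12 in WT mice (adjusted p = 0.37). Ptpn11, the phosphatase SHP2, was at 0.36 ± 0.08 in Nfkb1-deficient mice (adjusted p = 0.032) and 0.23 ± 0.08 in WT mice (adjusted p = 0.18). Pik3r2, a regulatory subunit of PI3K, was at -0.38 ± 0.14 in Nfkb1-deficient mice (adjusted p = 0.16) and -0.55 ± 0.14 in WT mice (adjusted p = 0.049). When arrays were centred on their medians, 0 were called in either genotype. The list median was -0.062 in Nfkb1-deficient mice, but 0.358 with arrays centred on their medians (0.247 over all genes), and 0.039 in WT mice.

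Of 26 genes known to respond to ERK, 10 rose and 1 fell with O3 in Nfkb1-deficient mice, or 8 and 0 with arrays centred on their medians. In WT mice 9 rose and 0 fell, or 1 and 0 with that centring. The median change was 0.594 in Nfkb1-deficient mice, with 21 of 26 positive, and 0.661 in WT mice, with 25 of 26 positive. Over all genes, 2.65% were called higher and 2.11% lower in Nfkb1-deficient mice, and 2.53% higher and 1.79% lower in WT mice. The list was chosen with earlier results of these data known, so these counts describe it and test nothing. That centring moved the median of all genes to 0.247 in Nfkb1-deficient mice and 0.0191 in WT mice, and that of the list to 0.947 in Nfkb1-deficient mice and 0.747 in WT mice. Leaving out single arrays gave 5 to 12 calls in Nfkb1-deficient mice (5 without Nfkb1KO-O3 replicate 1) and 3 to 10 in WT mice (3 without WT-O3 replicate 2, and 5 without WT-O3 replicate 1, WT-O3 replicate 3 or WT-Air replicate 3).

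Maff, a small basic leucine zipper factor, had the smallest p of the list in both genotypes, with a rise of 1.00 ± 0.11 in Nfkb1-deficient mice (adjusted p = 0.0011) and 0.93 ± 0.11 in WT mice (adjusted p = 0.00098). The AP-1 gene Fos rose in Nfkb1-deficient mice by 1.52 ± 0.22 (adjusted p = 0.0037) and was at 0.70 ± 0.22 in WT mice (adjusted p = 0.12). Junb, Fosl2 and Fosb, also AP-1 genes, were called in both genotypes. Junb rose by 1.19 ± 0.15 in Nfkb1-deficient mice and 0.65 ± 0.15 in WT mice, Fosl2 by 0.52 ± 0.10 in Nfkb1-deficient mice and 0.67 ± 0.10 in WT mice, and Fosb by 1.40 ± 0.34 in Nfkb1-deficient mice and 1.60 ± 0.34 in WT mice. Plaur, the urokinase receptor, rose by 0.97 ± 0.18 in Nfkb1-deficient mice and 1.07 ± 0.18 in WT mice. Ier2, an immediate early gene, rose in Nfkb1-deficient mice by 0.49 ± 0.09 (adjusted p = 0.012) and was at 0.29 ± 0.09 in WT mice (adjusted p = 0.12). Phlda1, the gene nearest to Hbegf in profile, rose by 1.04 ± 0.16 in Nfkb1-deficient mice and 0.95 ± 0.16 in WT mice. Myc rose by 1.54 ± 0.26 in Nfkb1-deficient mice (adjusted p = 0.0067) and 1.28 ± 0.26 in WT mice (adjusted p = 0.017). Ccnd1, cyclin D1, which was picked out after its values were seen, fell in Nfkb1-deficient mice (-0.63 ± 0.13, adjusted p = 0.017) but was not called with arrays centred on their medians (-0.16, adjusted p = 0.78), and was at 0.01 ± 0.13 in WT mice (adjusted p = 0.99). Between genotypes after O3, between genotypes in air and for the interaction, 0 of the 26 were called in limma, with 3 at an unadjusted p under 0.05 in each. Over all 17569 genes, 1646 after O3, 2003 in air and 1075 for the interaction were under that threshold. Of the other 4 lists, 0 genes were called in these comparisons. ERK-responsive genes also respond to other signals than the EGF receptor.

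**Figure D4:**
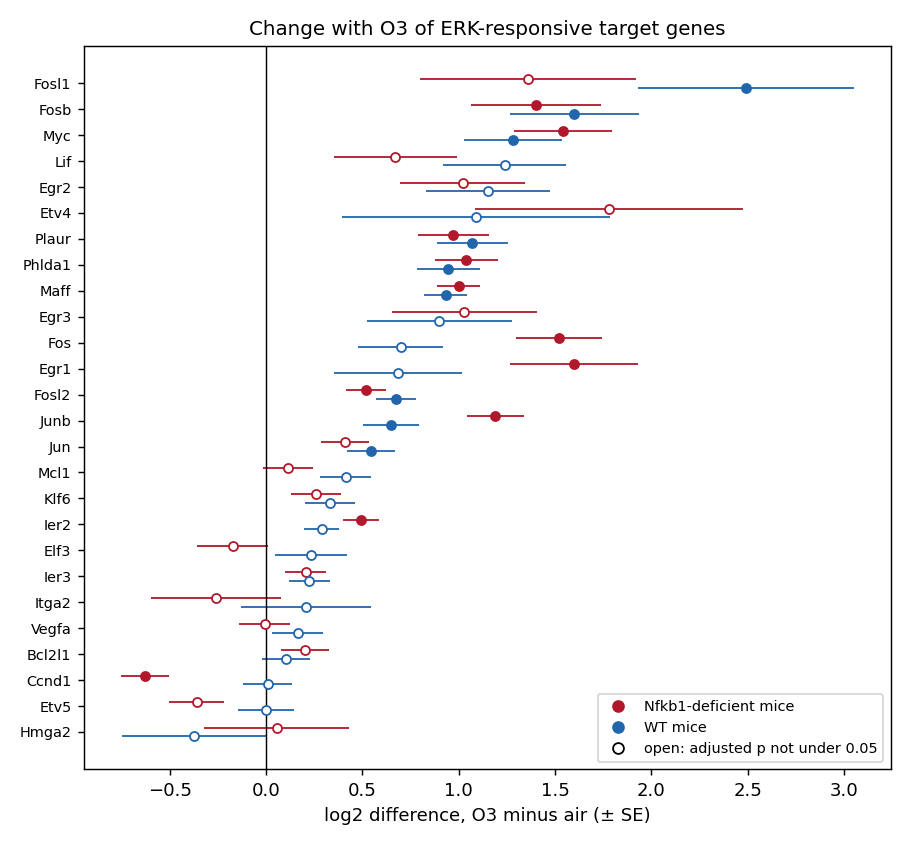
Log2 difference, O3 minus air (horizontal axis, ± SE), of 26 ERK-responsive genes in Nfkb1-deficient mice (red) and WT mice (blue). Filled points have an adjusted p under 0.05. Of the 26, 21 lie right of 0 in Nfkb1-deficient mice and 25 in WT mice, and Ccnd1 is the 1 filled point left of 0.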

How the data were processed

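The deposited values were signal intensities that the authors computed with MAS5 in Affymetrix Expression Console, as a linear, scaled signal per probe set. For each array 100 ng of total RNA had been amplified. Versions are not given in the sources used here. Of 45101 probe sets, 64 controls were set aside. Intensities below a floor of 1 were raised to it, and log2 values were quantile normalised across the 12 arrays. Probe sets above the 20th percentile in at least 1 array (42559) entered limma 3.58.1 in R 4.3.3, fitted on all 4 groups with a trend in the spread and Benjamini-Hochberg adjustment over all of them. Adjusted p under 0.05 was called. Detection calls were not used. Platform annotation gave 1 symbol to 34958 probe sets, several to 932 and none to 9211. Each gene of a list was read by its probe set of highest mean. Named were all members, the called genes of each list up to 6 by p (or 2 where none was called), and the 3 nearest profiles of each called member, of which 1 is not reported here. Members and lists were chosen with earlier results of these data known. Nothing in the labels says more of the replicates than that they were separate mice. On simulated data for O3 in WT mice, with 42559 probe sets, 68% of changes of 1 on the log2 scale and 92% of changes of 2 were recovered. The changes were placed only in probe sets with a mean above the median, and errors were drawn independently. These shares therefore do not cover dimmer probe sets or effects shared by a whole array. Sequences are RefSeq, GRCm38.p6.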

Additional observations from a re-analysis of the deposited data

How the results depend on the processing

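Member counts in WT mice with O3 were 3 probe sets in all alternatives but those with 1 value per gene, where they were 2 genes. They were 0 after O3, in air and for the interaction, apart from 1 in air with the methods' t-test at an unadjusted threshold (2399 of all probe sets), which gave 0 after adjustment. In Nfkb1-deficient mice with O3 the count was 1 with no trend in the spread, and 2 to 4 when single arrays were left out (2 without Nfkb1KO-O3 replicate 1 or 3). Median centring reversed Erbb3 with O3 in Nfkb1-deficient mice (0.14, adjusted p = 0.78) and its interaction (0.0139, adjusted p = 0.99). The median of all probe sets was then 0.163 in that comparison, -0.145 in air and 0.168 for the interaction, and with deposited scaling alone it was -0.209 with O3 in Nfkb1-deficient mice, 0.0913 in air and -0.132 for the interaction. The causes were not tested.

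Replicate numbers showed no sign of pairing the mice: in 18 same-numbered pairs the correlation of deviations was -0.104 to 0.0783, with 0 over 0.1. With 3 arrays a group, these correlations cannot show that the mice were unpaired. With the replicate block, 3 member probe sets were called with O3 in each genotype and 0 in the other 3 comparisons, with Erbb2 lost (adjusted p = 0.065), and over all probe sets 1131 in Nfkb1-deficient mice, 1038 in WT mice, 142 after O3, 50 in air and 1 for the interaction.

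Among pathway lists with O3, averaging each gene's probe sets called 1 sheddase in Nfkb1-deficient mice and 2 in WT mice, 1 feedback inhibitor in WT mice and 1 adaptor in Nfkb1-deficient mice. Median centring called 0 sheddases, 1 feedback inhibitor, 0 adaptors and 1 ERK-responsive gene in WT mice, and 0 adaptors in Nfkb1-deficient mice. Deposited scaling alone called 2 sheddases in Nfkb1-deficient mice. Without Nfkb1KO-Air replicate 1 and WT-Air replicate 3, 1 feedback inhibitor was called in each genotype and 0 adaptors in WT mice. Leaving out single arrays gave, in Nfkb1-deficient mice, 0 to 1 other ErbB genes, 0 to 2 sheddases, 0 to 4 feedback inhibitors, 0 to 2 adaptors and 5 to 12 ERK-responsive genes. In WT mice it gave 0 to 2 sheddases, 0 to 4 feedback inhibitors, 0 to 1 adaptors and 3 to 10 ERK-responsive genes, and 0 to 1 of these between genotypes after O3. The list alternatives other than this averaging were chosen after seeing the data.

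Over all probe sets, the calls with O3 in Nfkb1-deficient mice and in WT mice were 1527 (951 higher) and 1375 (914 higher), against 219 and 268 with no trend in the spread and 620 (584 higher) and 137 (119 higher) with median centring. Without single arrays they were 411 to 1709 in Nfkb1-deficient mice and 368 to 2133 in WT mice. Fitting only the groups compared gave 389 in Nfkb1-deficient mice and 41 in air. Array weights gave 2470 in WT mice and 381 after O3. The 8 calls for the interaction became 0 to 15 over the alternatives.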
